A study of Mus musculus with 12 samples.

Results

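Histologically normal lung taken beside tumors of cyclin E-transgenic mice was compared with lung of non-transgenic mice. The comparison used the 4 arrays titled as transgenic normal lung and the 4 titled as non-transgenic normal lung, 8 of the 12 arrays of the study. The other 4 arrays held lung adenocarcinomas of the transgenic mice and were kept out of the fit, so that their spread did not enter the error. All mice were FVB, an inbred strain, were labelled male and were 7 to 11 months old. The transgenic mice carried wild-type human cyclin E behind the human surfactant protein C promoter, and the non-transgenic FVB mice carried no transgene. Total RNA of whole lung tissue was converted to biotin-labelled cRNA and hybridized to Affymetrix GeneChip arrays of the mouse genome, on which a transcript is read by a set of short probes, called a probe set.

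Cyclin E binds and activates the kinase Cdk2 and carries cells from G1 into S phase of the cell cycle. The surfactant protein C promoter is active in alveolar type II cells, which make surfactant and can renew the alveolar epithelium. All cells of the transgenic mice carried the transgene, but this promoter limits its expression mainly to these epithelial cells, and whole lung also holds endothelium, fibroblasts, airway cells and leukocytes. The comparison asks how far such lung, which looked normal under the microscope, already differed in expression from lung without the transgene. The adjacent lungs came from mice that also bore tumors. The transgene and the presence of a tumor nearby came together in every adjacent lung and cannot be told apart here. The paper obtained the non-transgenic mice from NCI Frederick, whereas the transgenic mice were of lines its authors had described before. The source of the mice therefore also went with the group and cannot be told apart from it. In whole tissue, fewer cells of a type and less RNA per cell cannot be told apart either.

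The deposited table gave 1 log2 signal for each of 45101 probe sets on each array. Of these 64 were controls, and the other 45037 were all tested. No table used here links a probe set to its gene, so that cyclin E itself, surfactant genes, cell type markers and Wnt pathway genes were not analysed here, and the lung label could not be checked against its markers. Only control probe sets, whose identifiers name the transcript, are named below as genes. Median log2 signals were 4.17 to 4.21 on 7 of the arrays and 4.38 on adjacent lung 3. That array lay over 1 log2 unit below all 7 others in 1146 probe sets and above them in 221, whereas no other array did so in more than 142 in either direction. Its highest correlation with another array was 0.968, against at least 0.989 for each of the others. Results that turn on it are given with and without it.

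Adjacent lung and non-transgenic lung had closely similar profiles, and no single probe set separated them after adjustment for the number of tests. In limma's moderated test with Benjamini-Hochberg adjustment, 0 of 45037 probe sets (0%) passed an adjusted p of 0.05, and the smallest adjusted p was 0.395. At an unadjusted p under 0.05 there were 2545 probe sets (5.65%), 1669 (3.71%) higher and 876 (1.95%) lower in adjacent lung. This share was not even over the array. In 4 bins of equal size by mean signal, from dimmest to brightest, it was 2.66%, 5.86%, 8.35% and 5.73%. An unequal-variance test of each probe set found 2111 at an unadjusted p of at most 0.05 and 0 once adjusted. The paper names this kind of test for part of its other assays, and analysis of variance for the arrays. All 4 adjacent lungs lay above all 4 non-transgenic lungs in 1228 probe sets (2.73%) and below them in 634 (1.41%), in total 1862 (4.13%). Between groups that do not differ, shares of about 0.05 under an unadjusted p of 0.05 and 0.0286 without overlap would be expected. The latter share holds for 4 arrays against 4 and is larger where an array is left out. Many of the probe sets counted here and below may therefore not differ. For scale, the same fit on the 8 arrays of each other comparison called 6708 probe sets (14.9%) between tumors and non-transgenic lung and 4140 (9.19%) between tumors and adjacent lung. These comparisons share arrays with the present one.

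The differences were small for most of the array. The median absolute log2 difference was 0.13, and 99% of the probe sets differed by less than 0.75. For 42814 probe sets, or 95.1%, the 95% interval of the difference lay inside a 2-fold change in either direction. The share was 99.4% among the dimmest 11260 probe sets and 90.2% among the brightest 11259. Dim values have no bound against background, so that their narrow intervals do not show like expression. The median half-width of the interval was 0.33 on the log2 scale. Differences of at least 2-fold numbered 33 upward and 159 downward in adjacent lung, of which 14 and 41 came from probe sets whose groups did not overlap. In 14 of the 33 and 26 of the 159 the mean of the lower group was under 4.21, the median of all values. Signal cannot be told from background there, and the size of those differences is uncertain. The counts of 33 and 159 depended on single arrays. The 159 became 273, 251 and 266 without adjacent lungs 1, 2 and 4 and 112 without adjacent lung 3, and the 33 became 51 without adjacent lung 1 or 3.

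More probe sets were higher than lower in adjacent lung, most unevenly among the dimmest ones, and the split moved with adjacent lung 3. Sorted by mean signal into 4 bins of equal size, the dimmest bin, with mean signals up to 2.81, held 11260 probe sets, and its groups did not overlap in 352 probe sets in the upward direction and in 27 in the downward direction. The counts were 305 and 87 in the next bin, 311 and 189 in the one above the median, and 260 and 331 in the brightest, above 6.47. Without adjacent lung 3 they were, from dimmest to brightest, 431 and 177, 407 and 318, 446 and 479, and 498 and 621. With fewer arrays, groups that do not differ separate more often, so that the rise in these counts is not itself a result. Only the split within each bin is compared, and the dimmest bin kept an excess of higher ones. The median log2 difference fell from 0.080 in the dimmest bin to -0.029 in the brightest. Without adjacent lung 3 these medians were 0.024 and -0.0067. Over all probe sets the share of higher ones among those at an unadjusted p under 0.05 was 65.6%. It was 45.6% when each array was centred on its median, which moved the median difference of all probe sets from 0.05 to about 0, and 57.0% after quantile normalization. Without adjacent lung 3 it was 52.7% as deposited and 53.7% with centring. Centring thus turned the prevailing direction with adjacent lung 3 included, and did not without it.

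**Figure D1:**
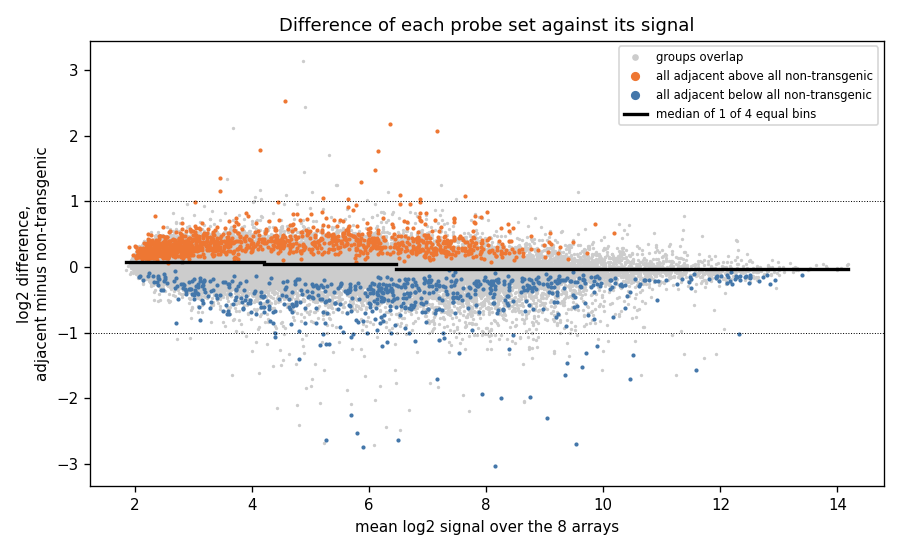
Log2 difference between adjacent and non-transgenic lung (vertical axis) against the mean log2 signal over the 8 arrays (horizontal axis), with each of the 45037 probe sets as a point. Orange and blue points are the 1228 and 634 probe sets whose groups did not overlap, black lines are the medians of the 4 bins by signal, from 0.080 to -0.029, and dotted lines mark a 2-fold change.

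Left out one at a time, the arrays moved the count at an unadjusted p under 0.05 between 2039, without non-transgenic lung 1, and 2997, without adjacent lung 3. Removal of adjacent lung 3 gave 1580 higher and 1417 lower probe sets. Of the 2545 with all 8 arrays, 1761 also passed without this array, or 69.2%, and 1236 passed only without it. Of the 159 probe sets at least 2-fold lower, adjacent lung 3 was the lowest adjacent lung in 77, and 86 of the 159 stayed at least 2-fold lower without it. Of the 33 at least 2-fold higher, 32 stayed so. The spread among adjacent lungs was a median SD of 0.21, against 0.18 among non-transgenic lungs. It was 0.15 over adjacent lungs 1, 2 and 4, and 0.16 to 0.17 over any 3 of the non-transgenic lungs.

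**Figure D2:**
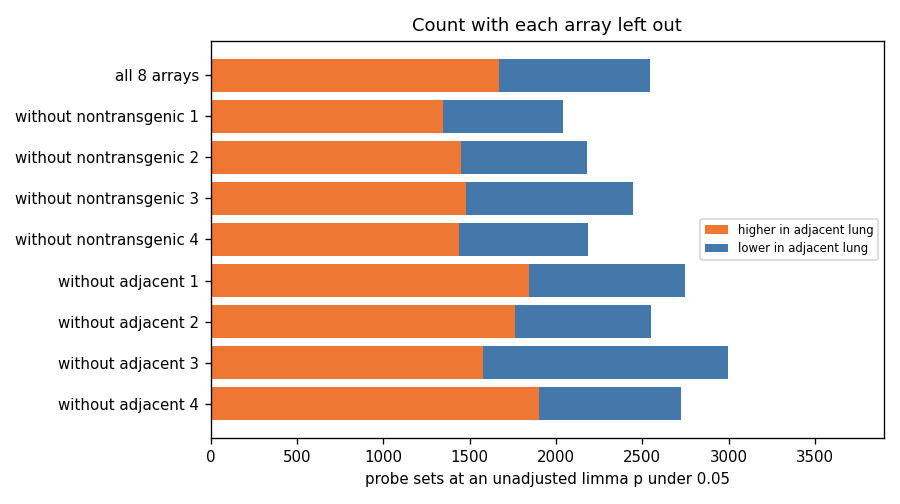
Number of probe sets at an unadjusted limma p under 0.05 (horizontal axis) with all 8 arrays and with each array left out (vertical axis), split into those higher (orange) and lower (blue) in adjacent lung. The bar without adjacent lung 3 is the longest, at 2997, and the most evenly split, with 1580 higher and 1417 lower.

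Individual probe sets are given by their identifiers, and those of smallest p whose groups did not overlap are described first. Among the higher ones, 1420838_AT was at log2 signals of 6.30, 6.31, 6.40 and 5.84 in non-transgenic lungs 1 to 4 and at 7.12, 7.38, 7.15 and 7.07 in adjacent lungs 1 to 4. Every adjacent lung lay above every non-transgenic lung by at least 0.67. The means were 7.18 ± 0.14 (SD, n = 4) and 6.21 ± 0.25 (SD, n = 4), a log2 difference of 0.97 with a standard error of 0.14, and the limma adjusted p was 0.595. Without adjacent lung 3 the log2 difference was 0.98, so that this probe set did not rest on that array. Tumors did not continue the direction, since they were at 4.78 to 5.86, with 1 of the 4 just above the lowest non-transgenic lung and the others below all of them.

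The probe set of smallest p overall was lower in adjacent lung. 1427445_A_AT was at 7.48, 6.70, 6.41 and 5.74 in non-transgenic lungs 1 to 4 and at 4.27, 3.77, 4.17 and 3.60 in adjacent lungs 1 to 4. The groups were 1.46 apart at their nearest arrays, and adjacent lungs 2, 3 and 4 lay under 4.21, the median of all values, where the deposited values do not tell signal from background. The means were 3.95 ± 0.32 (SD, n = 4) and 6.58 ± 0.72 (SD, n = 4), a log2 difference of -2.63 with a standard error of 0.32. No fold is given, because the level in adjacent lung may be that of background. The limma adjusted p was 0.395 with all 8 arrays and 0.0691 with the replicate number as a block. In tumors the signal was 2.36 to 3.98.

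The largest decrease on the array was in 1449071_AT, which was at 10.74, 9.21, 9.85 and 8.86 in non-transgenic lungs 1 to 4 and at 7.54, 6.82, 6.69 and 5.48 in adjacent lungs 1 to 4. No arrays overlapped, although the SD was 0.83 in non-transgenic and 0.85 in adjacent lung. The log2 difference was -3.03 with a standard error of 0.47, or 8.18-fold, and the limma adjusted p was 0.595. It was the only probe set to pass with the replicate number as a block (limma adjusted p = 0.0239). That number is not an animal shared between these groups, and the labels do not say what else it may stand for. Tumor 2 was at 7.57, as high as the highest adjacent lung, and the other tumors were at 3.10 to 4.07.

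One probe set, 1435196_AT, passed when adjacent lung 3 was left out, and it was chosen after its values had been seen. It was at 4.44, 4.64, 4.53 and 4.23 in non-transgenic lungs 1 to 4, and at 6.41, 7.10 and 6.58 in adjacent lungs 1, 2 and 4. Adjacent lung 3, at 4.56, lay inside the non-transgenic range, so that the groups overlapped through this array alone. With all 8 arrays the log2 difference was 1.70 with a standard error of 0.44 (limma adjusted p = 0.808), and without adjacent lung 3 it was 2.24 (limma adjusted p = 0.00591). That value rests on 3 adjacent lungs against 4 non-transgenic lungs. Tumor 2 was at 5.10 and the other tumors were at 3.01 to 3.46, below all non-transgenic lungs.

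**Figure D3:**
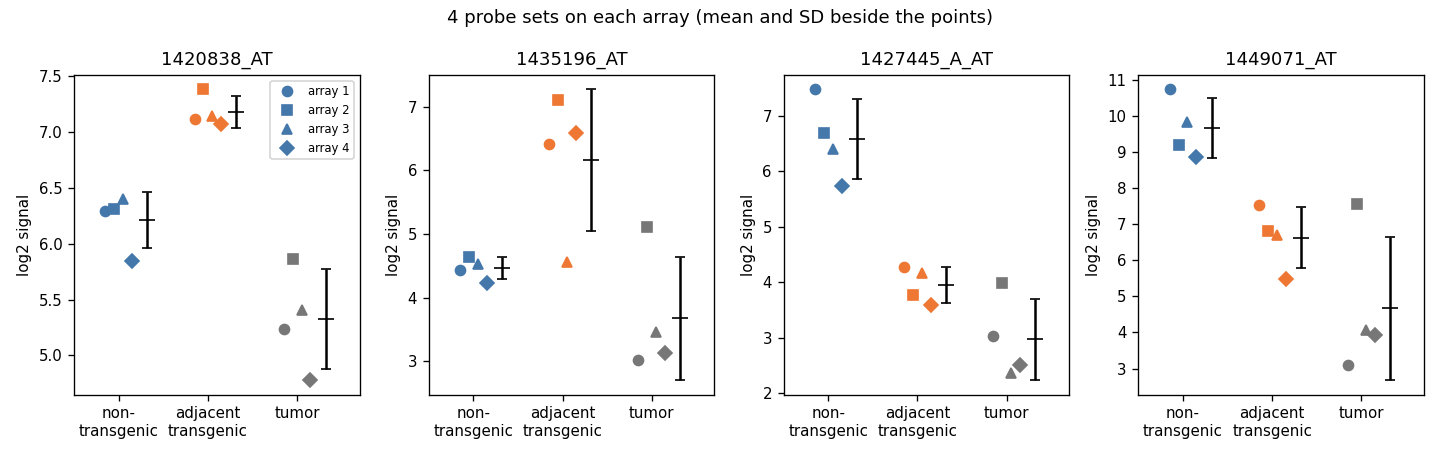
Log2 signal (vertical axes) of 4 probe sets, named in the panel titles, in non-transgenic lung, adjacent transgenic lung and tumors, with each array as a point, its marker giving the number, and the mean and SD beside them. In 1420838_AT, 1427445_A_AT and 1449071_AT the normal lung groups do not overlap, and in 1435196_AT adjacent lung 3 lies at 4.56 with the non-transgenic lungs.

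The other probe sets that did not overlap and had the next smallest p showed the same mix of sizes. Another 11 higher ones had log2 differences of 0.60 to 2.53 and limma adjusted p of 0.595 to 0.808. Another 10 lower ones had log2 differences of -2.74 to -0.56, with limma adjusted p again of 0.595 to 0.808. Of the 12 higher and 12 lower probe sets together, 4 and 7 differed at least 2-fold. The mean of the tumors, which had no part in choosing them, lay above both normal groups in 4 of the 12 higher ones, between them in 3 and below both in 5. Of the 12 lower ones it lay below both in 10 and above both in 2. Over all probe sets, tumors were at least 2-fold lower than non-transgenic lung in 2755 and higher in 1503. Against adjacent lung these counts were 2523 and 1457. The share of all probe sets with the tumor mean below both groups was not counted.

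The largest differences were mostly decreases, and they followed particular lungs. Adjacent lung was at least 4-fold lower in 23 probe sets and at least 4-fold higher in 6. These were picked by size and carry no test. Several probe sets may read the same transcript or vary together on the same arrays. Counts among the 23 and the 6 are therefore not counts of separate transcripts. Some of the 23 had adjacent means of 3.36 to 4.12, under the median of all values (4.21), so that the size of their decrease is uncertain. Non-transgenic lung 1 was the highest of its group in all 23 lower ones, and without it 7 probe sets were at least 4-fold lower in place of 23. In 12 of the 23, adjacent lungs 1, 2 and 4 lay below all non-transgenic lungs while adjacent lung 3 lay within their range. The median signals of these 12 were 8.59, 7.13, 6.89 and 6.42 in non-transgenic lungs 1 to 4 and 4.82, 4.81, 6.93 and 3.66 in adjacent lungs 1 to 4. Their log2 differences were -2.68 to -2.03 with all 8 arrays. In another 9 the groups did not overlap, with medians of 6.78 to 8.34 in the non-transgenic lungs and 4.27 to 5.48 in the adjacent lungs. Thus some of the large decreases were shared by all adjacent lungs, and in others adjacent lung 3 overlapped with the non-transgenic lungs. In these it lay near the non-transgenic mean in some (8.76 against 8.80) and well below it in others (8.39 against 9.67). In 22 of the 23 the mean of the tumors was below that of both normal groups, and in 22 tumor 2 was the highest tumor. The same shares over all probe sets were not counted, and large tumor differences were more often decreases across the array.

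Increases followed other lungs. In 5 of the 6 probe sets at least 4-fold higher, adjacent lungs 2 and 4 both lay above adjacent lungs 1 and 3, and in 3 of the 6 the groups did not overlap. The median signals were 3.35 to 4.46 in the non-transgenic lungs, 8.58 and 7.91 in adjacent lungs 2 and 4, and 4.45 and 5.53 in adjacent lungs 1 and 3. Several of the 6 had non-transgenic means under 4.21, of 2.63, 3.30, 3.31 and 3.68. The deposited values do not tell signal from background there, so that the size of those increases, the largest among them, is uncertain. The probe set with the largest increase, a log2 difference of 3.14 with a standard error of 1.11 (limma adjusted p = 0.808), was at 2.94 to 3.60 in non-transgenic lung and at 3.41, 8.75, 4.66 and 8.98 in adjacent lungs 1 to 4. It overlapped with non-transgenic lung through adjacent lung 1. Tumors 1 and 3 were at 12.26 and 13.08, tumor 2 at 7.90 and tumor 4 at 4.70. In this probe set single adjacent lungs reached the level of a tumor, and single tumors the level of an adjacent lung. Its log2 difference was 2.37 without adjacent lung 2 and 2.30 without adjacent lung 4. The 6 probe sets at least 4-fold higher became 2 without adjacent lung 2, 3 without adjacent lung 4 and 4 to 9 without any other array.

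**Figure D4:**
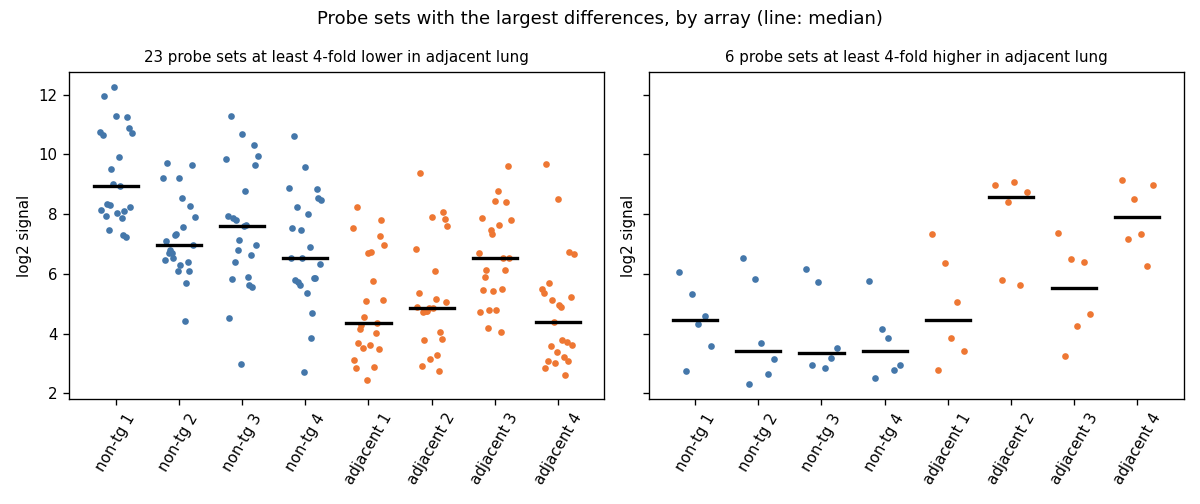
Log2 signal (vertical axis) on each of the 8 arrays (horizontal axis, with non-tg for non-transgenic lung) of the 23 probe sets at least 4-fold lower (left) and the 6 at least 4-fold higher (right) in adjacent lung, with probe sets as points and black lines as medians. On the left the medians are 6.54 to 8.95 in non-transgenic lung and 6.53 in adjacent lung 3 against 4.34 to 4.87 in the other adjacent lungs, and on the right adjacent lungs 2 and 4 stand highest.

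With all 8 arrays, no control probe set passed a test of the difference between the groups. The transcripts they read comprise Gapdh, a glycolytic enzyme, cytoplasmic beta-actin, the transferrin receptor, which takes up iron, pyruvate carboxylase, which feeds the citric acid cycle, 18S rRNA of the small ribosomal subunit, and the short interspersed repeats B1 and B2. Of the 19 control probe sets, 0 passed a two-sided exact permutation test with adjustment over the 19, and 0 passed without adjustment. With 4 arrays against 4 the smallest possible exact p is 0.0286, so that the adjusted test could call a probe set only if at least 11 of the 19 separated completely. With 1 array left out, 4 of them reached 0.0286 (adjusted p = 0.271), the 5′ and middle probe sets of beta-actin (log2 differences of -0.19 and -0.13) without adjacent lung 2, and the B1 repeat (0.33) and a middle probe set of pyruvate carboxylase (0.14) without non-transgenic lung 3. The B1 repeat was at 10.33 to 10.88 in non-transgenic and 10.67 to 10.92 in adjacent lung, a log2 difference of 0.23 (exact permutation p = 0.143, adjusted p = 0.995). The smallest p belonged to the 3′ probe set of pyruvate carboxylase, which was at 6.53, 6.05, 6.45 and 6.63 in non-transgenic lungs 1 to 4 and at 6.67, 6.57, 7.19 and 6.75 in adjacent lungs 1 to 4. The groups overlapped through adjacent lung 2, and the log2 difference was 0.38 (exact permutation p = 0.0571, adjusted p = 0.995), or 0.25 without adjacent lung 3.

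Beta-actin and Gapdh were near-equal in both groups at their 3′ ends. The 3′ probe set of beta-actin was at 13.43 ± 0.05 (SD, n = 4) in non-transgenic lung and 13.42 ± 0.11 (SD, n = 4) in adjacent lung, and that of Gapdh at 11.06 ± 0.23 (SD, n = 4) and 11.05 ± 0.20 (SD, n = 4). The middle probe set of Gapdh was at 10.68 to 11.21 in non-transgenic lung and at 10.77, 11.08 and 10.99 in adjacent lungs 1, 2 and 4, but at 9.01 in adjacent lung 3. Its log2 difference was -0.38 with that array and 0.10 without it. 18S rRNA varied widely among adjacent lungs, with its 3′ probe set at 10.21, 9.34, 9.17 and 7.97 in adjacent lungs 1 to 4, an SD of 0.92, against 8.82 to 9.43 and an SD of 0.28 in non-transgenic lung. The log2 difference was 0.15 at the 3′ probe set (exact permutation p = 0.743, adjusted p = 0.995), -0.47 at the 5′ and -0.04 at the middle one. At the 3′ probe set it was -0.19 without adjacent lung 1 and 0.55 without adjacent lung 4, so that these probe sets gave no common direction.

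**Figure D5:**
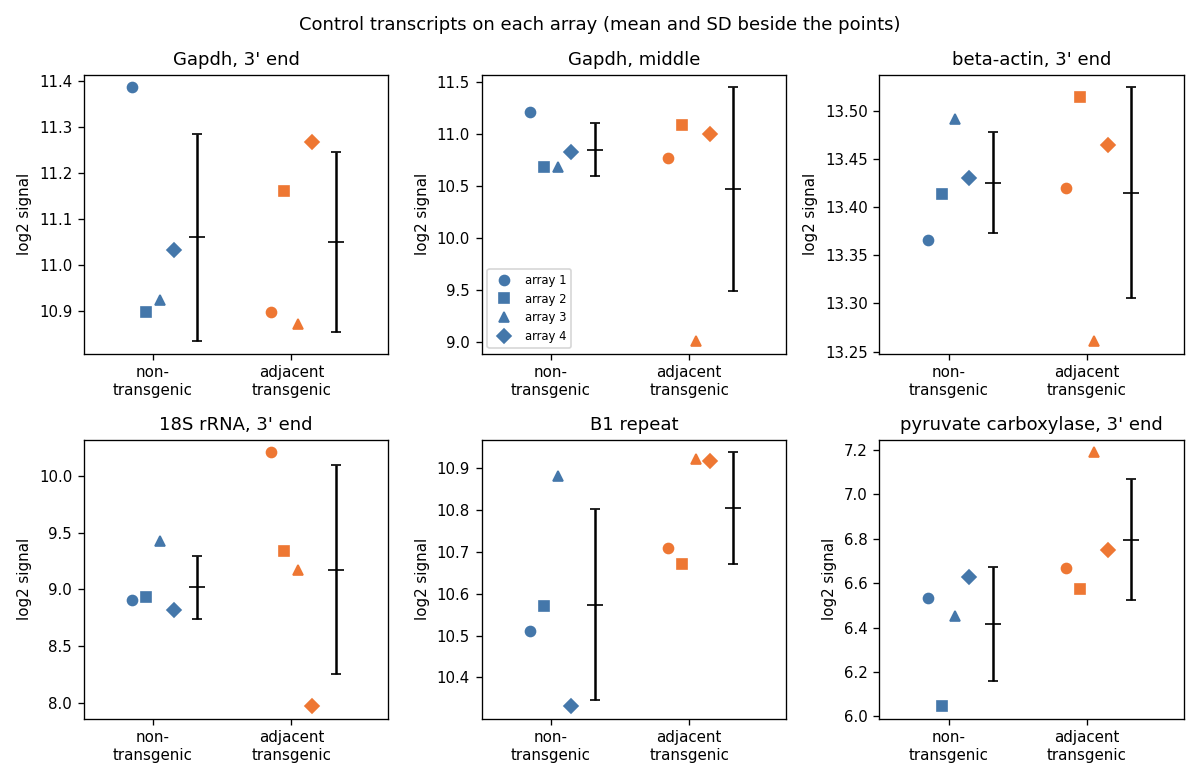
Log2 signal (vertical axes) of 6 control probe sets for named transcripts in non-transgenic and adjacent transgenic lung, with each array as a point, its marker giving the number, and the mean and SD beside them. The groups overlap in every panel, adjacent lung 3 stands at 9.01 in the middle probe set of Gapdh, and 18S rRNA spreads from 7.97 to 10.21 among adjacent lungs.

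RNA and hybridization quality were compared last. The signal at the 3′ end minus that at the 5′ end, averaged over Gapdh and beta-actin, which rises as RNA is degraded, was 0.35, 0.49, 0.43 and 0.44 in non-transgenic lungs 1 to 4 and 0.55, 0.39, 0.57 and 0.57 in adjacent lungs 1 to 4. Adjacent lungs 1, 3 and 4 lay above every non-transgenic lung, and the groups overlapped through adjacent lung 2 alone. The means differed by 0.094 (exact permutation p = 0.114). The 18 probe sets for bacterial and phage transcripts added at hybridization averaged 10.27 to 10.92 in non-transgenic lung and 10.57 to 11.40 in adjacent lung, a difference of 0.37 (exact permutation p = 0.171). Their part in the differences above was not tested.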

How the data were processed

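Lungs of non-transgenic FVB mice, histologically normal lung of cyclin E-transgenic mice and adenocarcinomas of transgenic mice were each hybridized to 4 Affymetrix arrays. The deposited values were log2 signals of 1.50 to 14.51, already normalized across arrays by the authors. For this step their methods give Robust Multichip Average with a later filter in GeneSifter, and the submitters' processing notes give GCRMA, both without versions. The table shows no filter and has no detection calls, so that dim values have no bound against background. The number of arrays limits the precision. Groups came from the sample titles, and the paper describes the samples as independent.

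Using limma 3.58.1 in R 4.3.3, lmFit and eBayes were run on the 8 arrays of normal lung over all 45037 probe sets other than controls, with Benjamini-Hochberg adjustment and a threshold of 0.05. Control probe sets were compared with exact permutation tests. The comparison and its lists were chosen with earlier results of these data known. The lists of cell type markers and pathways could not be applied, because no table used here links probe sets to genes, and neither could the part of the naming rule that asked for 1 gene symbol. Probe sets described individually were the 12 of smallest p in each direction whose groups did not overlap and whose higher group had a mean above the median of all values (4.21). Of these, the first in each direction is given by its identifier, together with the 2 probe sets called under an alternative. The alternatives were a filter at the median or at the 75th percentile (6.47) in at least 4 arrays, quantile normalization, median centring, a floor at the 25th percentile (2.81), an intensity trend with a robust fit, all 12 arrays in the fit, the replicate number as a block, the unequal-variance test and each array left out. The filter or the centring without adjacent lung 3, and the alternatives for control probe sets, were chosen after seeing the data. The fits were also run on simulated data with independent errors and without a distant array such as adjacent lung 3. The share of simulated differences recovered is not given here, so that the power of the test is left unstated.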

Additional observations from a re-analysis of the deposited data

Results flagged for a closer look

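Dixon's test for a single distant value was applied to 50 sets of 4 arrays and marked 2, and chance alone marks about 1 set in 20. The middle probe set of Gapdh was at 9.01 in adjacent lung 3 and at 10.77 to 11.09 in the other adjacent lungs. The mean 3′ minus 5′ signal of Gapdh and beta-actin was 0.39 in adjacent lung 2 and 0.55 to 0.57 in the other adjacent lungs.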

How the results depend on the processing

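The count of probe sets called stayed at 0 with both filters, both normalizations, the floor, the intensity trend, all 12 arrays in the fit and the unequal-variance test. Blocking on the replicate number gave 1 (lower), and it was 0 to 1 with 1 array left out, the 1 (higher) being without adjacent lung 3, where it was also 1 after the median filter or median centring. Among the other removals the smallest adjusted p was 0.090 to 0.83. The labels do not pair these mice by replicate number. Deviations from the group means had correlations of -0.21, -0.046, 0.11 and 0.052 for numbers 1 to 4, and 1 of the 4 adjacent lungs correlated best with its own number. These values cannot tell whether arrays of the same number were handled together. The block gave 2477 probe sets at an unadjusted p under 0.05. The 2545 at that threshold became 1486 with the median filter and 750 with the stricter filter. These are 6.57% and 6.52% of the 22621 and 11504 probe sets tested there, against 5.65% of all. With the median filter and without adjacent lung 3 the count was 1812, or 8.01%. With 1 array left out and no filter it was 2039 to 2997. The 1862 whose groups did not overlap became 1093 and 605 with the filters and were 3103 to 3643 with 1 array left out, since fewer arrays overlap less, and 3369 with median centring and without adjacent lung 3. The 42814 with an interval inside a 2-fold change became 20691 and 10232 with the filters, or 91.5% and 88.9% of the probe sets tested. They became 21760 with the median filter and without adjacent lung 3, and were 41756 to 43974 with 1 array left out. Medians of gene lists could not be computed under any setting.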

Other observations

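The suffix of a probe set identifier tells how its probes match the transcripts of the array's design: a plain one reads 1 transcript, a those of 1 gene, s those of several genes and x may cross-hybridize with others. At an unadjusted p under 0.05 were 5.54% of 36082 plain, 6.53% of 4426 a, 6.51% of 2088 s and 5.00% of 2441 x probe sets, against 5.65% of all. Differences of at least 2-fold made up 0.355%, 0.655%, 0.766% and 0.778% of them. Of the 29 differences of at least 4-fold, 18 were in plain probe sets, 3 in a, 2 in s and 6 in x, so that 8 came from probe sets that can read more than 1 gene.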
